A study of Homo sapiens with 24 samples.

Results

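The 45 genes described here encode the effector proteins that interferons switch on in a cell. They were chosen by gene symbol, with earlier results of these data known, from a table of 61251 genes, and all 45 were found in it. RNA sequencing was done on 24 libraries of KYSE450, an established human cell line of oesophageal squamous cell carcinoma, in 4 groups of 6. The groups were chemoresistant drug tolerant persister (DTP) cells, the chemoresistant line (titled KYSE450DDP) they belong to, parental DTP cells, and the parental line. A DTP cell is one of the few in a tumour population that lives through a drug without a fixed resistance mutation. The labels give the genotype of every group as WT and list no treatment of the sequenced cultures. They name no drug, dose or duration, do not explain the suffix DDP, and do not say whether the chemoresistant line is 1 clone. Nor is it stated that libraries of 1 group are separate cultures. The p-values therefore reflect the spread among these libraries, and that spread may be technical.

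Interferons bind receptors at the cell surface, and the receptor-bound kinases JAK1 and TYK2 phosphorylate STAT proteins. With IRF9 these form a complex that binds the interferon-stimulated response element (ISRE), a short sequence before the start of its target genes. The targets block viruses at entry, at translation, at replication and at budding, and many of them also act on cell survival. In tumour cells such genes can run without infection.

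The core of the ISRE was looked for as GAAA, any 2 bases and GAAA again, on both strands (read from the other strand as TTTC, any 2 bases and TTTC), in the RefSeq promoter windows of build GRCh38.p14, which run from 250 bases before to 50 bases after each annotated start. Of the 45 genes, 38 had at least 1 window, and 28 of these (73.7%) held a match, against 1195 of all 27305 genes with a window (4.38%). Counted by window, 33 of 52 (63.5%) held a match, against 1255 of 35116 (3.57%). In 15 genes a single window held 2 or more matches. The stretches below, each of 120 bases upstream of the start, show 6 genes with matches whose levels or changes the results below turn on, and 2 without. Capitals mark matches, and overlapping matches run together.
ISG15: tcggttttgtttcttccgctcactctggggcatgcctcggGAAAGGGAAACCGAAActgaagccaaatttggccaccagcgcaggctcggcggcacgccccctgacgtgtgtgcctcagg
IFI27: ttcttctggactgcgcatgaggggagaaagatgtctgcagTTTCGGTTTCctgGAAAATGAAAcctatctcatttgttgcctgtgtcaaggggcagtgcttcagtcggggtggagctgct
IFI6: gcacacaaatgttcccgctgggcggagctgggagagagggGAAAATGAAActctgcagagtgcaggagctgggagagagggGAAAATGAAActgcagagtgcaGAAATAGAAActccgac
BST2: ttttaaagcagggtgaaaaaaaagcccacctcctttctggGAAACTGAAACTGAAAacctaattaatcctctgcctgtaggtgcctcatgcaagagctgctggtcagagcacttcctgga
IFIT1: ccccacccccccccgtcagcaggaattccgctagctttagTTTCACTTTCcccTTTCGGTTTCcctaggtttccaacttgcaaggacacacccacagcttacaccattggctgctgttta
IFITM3: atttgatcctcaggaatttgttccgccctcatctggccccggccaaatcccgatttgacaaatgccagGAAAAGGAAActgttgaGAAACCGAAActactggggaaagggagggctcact
UBE2L6: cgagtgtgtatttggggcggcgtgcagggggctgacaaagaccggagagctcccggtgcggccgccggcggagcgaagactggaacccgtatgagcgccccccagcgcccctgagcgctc
ZC3HAV1: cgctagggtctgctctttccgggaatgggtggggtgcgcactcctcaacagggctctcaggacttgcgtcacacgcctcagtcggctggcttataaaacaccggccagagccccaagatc
These lie at chr1:1013344-1013463 on the plus strand (ISG15), chr14:94110588-94110707, plus (IFI27), chr1:27672269-27672388, minus (IFI6), chr19:17405681-17405800, minus (BST2), chr10:89392467-89392586, plus (IFIT1), chr11:320861-320980, minus (IFITM3), chr11:57567936-57568055, minus (UBE2L6), and chr7:139109721-139109840, minus (ZC3HAV1). In ISG15 and BST2 a pair of overlapping matches shares its middle GAAA. IFIT1, IFI27 and IFITM3 hold a pair of separate matches, which in IFI27 lie on opposite strands, and IFI6 holds 3 separate matches. The other genes with a window and no match were CMPK2, HELZ2, HERC6, IFI35, OAS1, SAMD9L, SP110 and XAF1. IFIT2, OAS2, OASL, USP18, MX2, IFITM2 and TRIM22 had no window in the table used. A match is a description of the sequence, and no binding was measured. Other spacings were not searched for. The upstream stretches of OAS1 and IFI35 hold 2 GAAA with 1 base between them, so lack of a match is not lack of an ISRE.

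**Figure D1:**
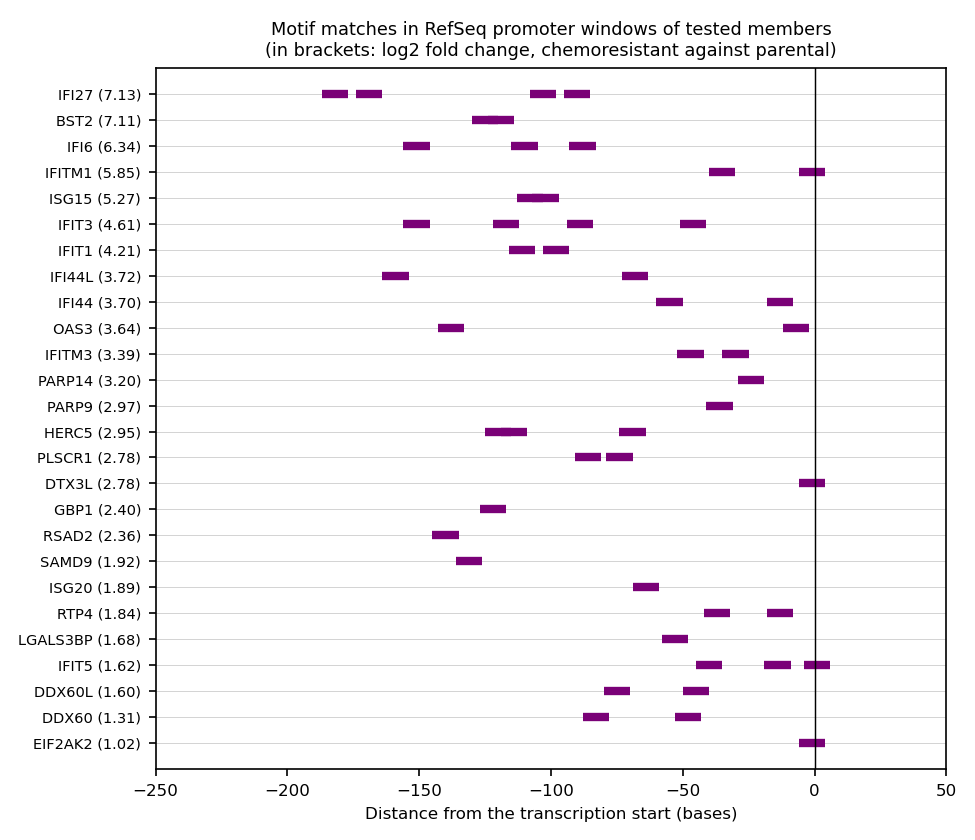
Positions of matches to the ISRE core (purple bars) relative to the transcription start (vertical line, distance in bases) in the RefSeq windows of the 26 tested genes that hold one. Genes run down the page by their log2 fold change of chemoresistant against parental cells, given in brackets. Windows of 1 gene with different starts are drawn on 1 line, each from its own start.

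Expression was given as FPKM (reads scaled by gene length and library total). The gene lengths implied by the values run from 867 to 18045 bases. The longest are those of OAS3 (18045), MX1 (17983), DDX60 (17337), MX2 (14562) and OAS1 (13021). They lower the FPKM of those genes, so levels are compared within a gene. The values came out as whole reads, and library totals ran from 14947379 to 37989445 reads. The 8 squamous markers summed to 4770 to 5290 FPKM in chemoresistant DTP, 4170 to 4920 in chemoresistant, 2650 to 3240 in parental DTP and 4340 to 4840 in parental libraries. Single squamous markers went both ways. Their log2 fold changes ran from -2.52 to 1.74 in chemoresistant against parental cells. They ran from -1.30 to 1.46 in parental DTP against parental cells, and from -0.66 to 0.41 in chemoresistant DTP against chemoresistant cells. The 8 leukocyte markers summed to 0.394 to 2.84 FPKM in chemoresistant DTP, 0.362 to 2.30 in chemoresistant, 0.164 to 2.56 in parental DTP and 0.0982 to 0.192 in parental libraries, and CD3E and TYROBP were at 0 in every group. The 4 markers of plasmacytoid dendritic cells, the main interferon-producing blood cell, summed to 0.998 to 1.36 FPKM in chemoresistant DTP, 1.73 to 1.99 in chemoresistant, 1.96 to 2.21 in parental DTP and 0.893 to 1.27 in parental libraries. Of these 4, CLEC4C and LILRA4 were at 0 in every chemoresistant library, and LILRA4 in every parental DTP library. Only 1 of the 4 reached a mean of 1 FPKM in some group. The 4 endothelial markers summed to 0.367 to 0.683 FPKM in chemoresistant DTP, 0.941 to 1.18 in chemoresistant, 0.127 to 0.220 in parental DTP and 0.117 to 0.222 in parental libraries. The 6 fibroblast markers summed to 2.70 to 14.2 FPKM in chemoresistant DTP, 4.37 to 19.2 in chemoresistant, 1.42 to 5.78 in parental DTP and 2.76 to 7.38 in parental libraries. The part of these cell types in the results was not tested. Parental DTP libraries 5 and 6 stood apart from libraries 1 to 4 in many of the 45 genes, and are given apart where a member's single levels are printed. For genes of the interferon pathway outside the 45, means cover all 6. In bulk RNA, fewer expressing cells and less RNA per cell cannot be told apart.

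Together the 45 genes took 0.243% to 0.296% of all reads in chemoresistant DTP libraries, against 1.17% to 1.29% in chemoresistant libraries. In parental DTP libraries 1 to 4 they took 0.0874% to 0.0932%, in libraries 5 and 6 0.113% and 0.109%, and in parental libraries 0.0921% to 0.1%. The chemoresistant line thus had the highest share, its DTP cells an intermediate one, and neither chemoresistant group overlapped a parental one. A gene was tested when its mean reached 1 FPKM in some group, and 43 of the 45 passed. The 2 left out were MX1 and EPSTI1. A gene can pass this filter through its highest group alone, and counts below cover the tested genes only. MX2, ISG20, IFITM2, RTP4, RSAD2, CMPK2, DDX60, DDX60L, TRIM22, SP110 and XAF1 reached a mean of 1 FPKM in chemoresistant cells only. For these genes the filter itself places chemoresistant cells highest.

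**Figure D2:**
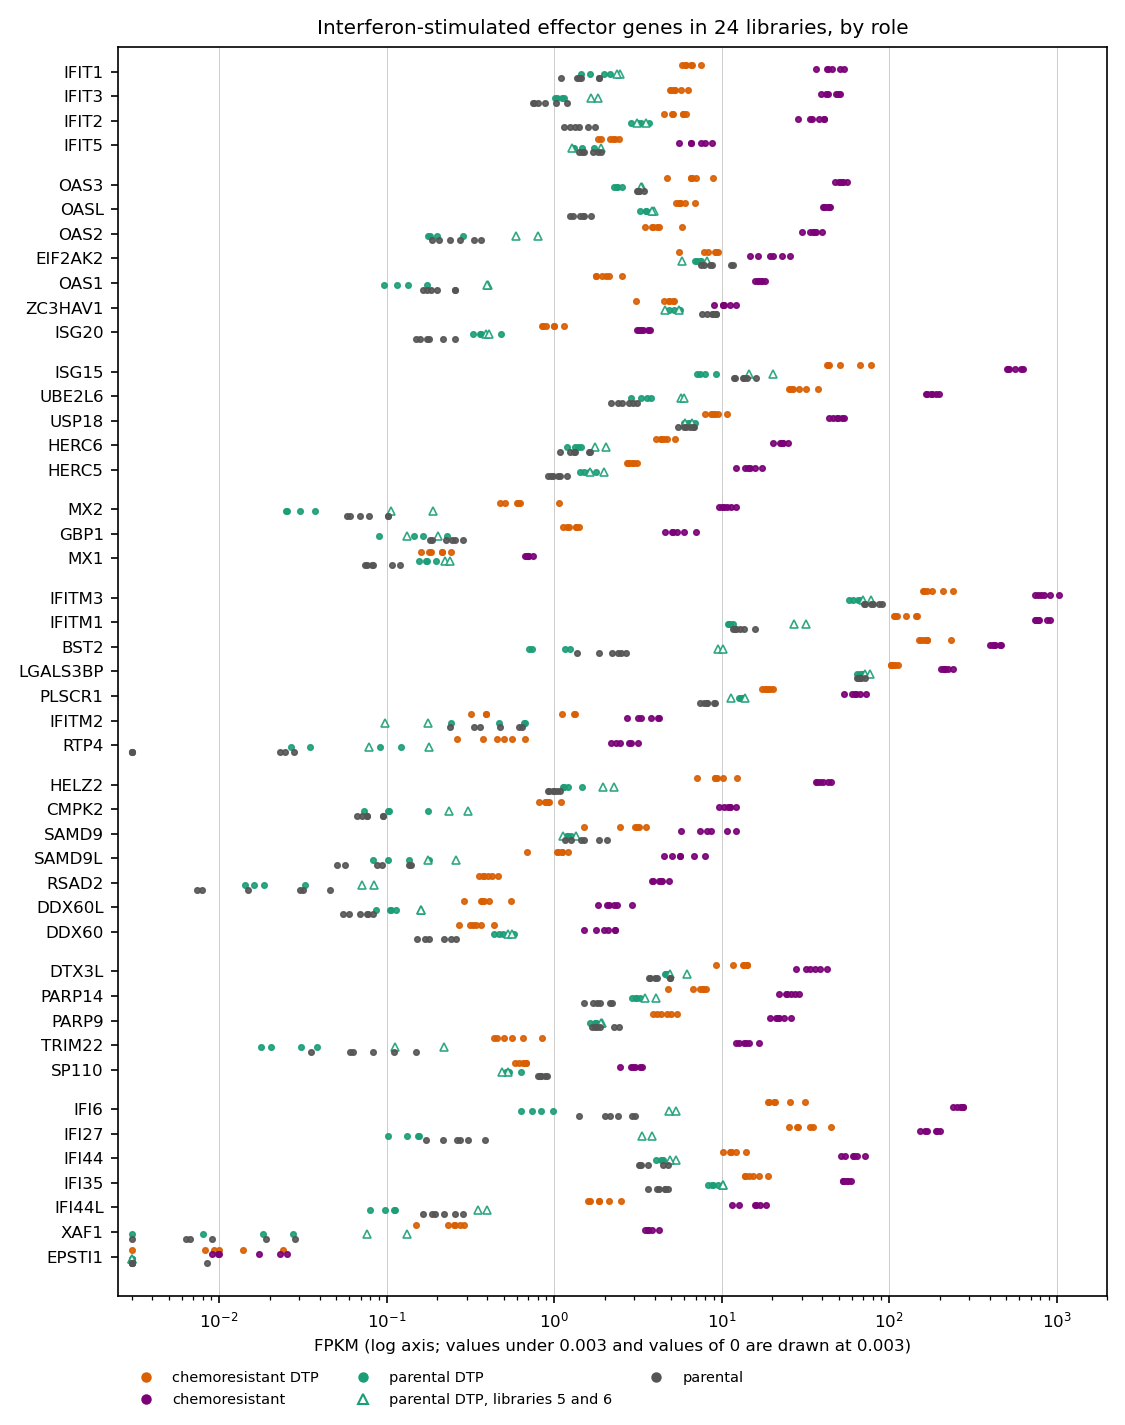
FPKM of each gene in each library (log axis), with genes grouped by role and sorted by level in chemoresistant cells. Orange points are chemoresistant DTP, purple chemoresistant, green parental DTP and grey parental libraries. Open triangles are parental DTP libraries 5 and 6. For most genes purple points lie far to the right, orange points lie between them and the parental groups, and the triangles of IFI27, BST2, IFI6 and IFITM1 lie to the right of the other green points.

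In chemoresistant against parental cells, 43 of 43 tested genes were higher (background: 48.2% of the 13729 genes tested were called higher, and 77.5% in either direction). Of these, 42 were at least 2-fold higher on the log2(FPKM + 1) scale (background 9.92%), and 42 had every chemoresistant library above every parental one (background 39.3%). The median log2 fold change was 3.33, against 0.14 over all genes tested, and the range ran from 0.25 (ZC3HAV1) to 7.13 (IFI27). Adjusted p-values (limma, Benjamini-Hochberg) were at most 1.03e-07, apart from 0.00752 for ZC3HAV1. In chemoresistant DTP against chemoresistant cells, 43 of 43 were lower (background 27.4%, and 48.0% in either direction), all 43 at least 2-fold (background 1.03%) and all 43 with every DTP library below every chemoresistant one (background 17.2%). The median was -2.01, against -0.02 over all genes, with a range from -3.50 (IFI6) to -1.03 (LGALS3BP). The highest adjusted p was 0.00329, for BST2. Both counts of 43 include the genes that passed the filter through chemoresistant cells alone. The list was also chosen with earlier results of these data known, so background shares here and below are given for scale only. Unless stated, log2 fold changes and 2-fold counts are on the log2(FPKM + 1) scale, which understates changes of low genes. Levels are given below by role, with the lowest, median and highest library.

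The IFIT proteins bind foreign RNA that lacks the cap marks of the cell's own mRNA and hold it back from translation. IFIT3 had 4.89, 5.24 and 6.32 FPKM in chemoresistant DTP cells, against 39.2, 45.8 and 50.7 FPKM in chemoresistant cells. It had 1.01, 1.08 and 1.14 FPKM in parental DTP libraries 1 to 4, 1.84 and 1.65 FPKM in libraries 5 and 6, and 0.752, 0.844 and 1.20 FPKM in parental cells. Only the parental groups overlapped. For IFIT1 the values were 5.79, 6.34 and 7.56 FPKM in chemoresistant DTP and 36.4, 44.6 and 53.7 FPKM in chemoresistant cells. In parental DTP libraries 1 to 4 IFIT1 had 1.44, 1.81 and 2.16 FPKM, in libraries 5 and 6 it had 2.49 and 2.36, and in parental cells 1.11, 1.43 and 1.86. The log2 fold changes of chemoresistant against parental cells were 4.61 ± 0.09 for IFIT3 and 4.21 ± 0.10 (SE) for IFIT1. Those of chemoresistant DTP against chemoresistant cells were -2.86 ± 0.09 and -2.63 ± 0.10. IFIT2 had similar changes (3.94 and -2.52). IFIT5 had changes of 1.62 ± 0.08 and -1.37 ± 0.08 in the same comparisons. Its levels were 1.83, 2.20 and 2.44 FPKM in chemoresistant DTP, 5.57, 7.04 and 8.78 FPKM in chemoresistant, 1.30, 1.38 and 1.72 FPKM in parental DTP libraries 1 to 4, 1.90 and 1.27 FPKM in libraries 5 and 6, and 1.41, 1.61 and 1.91 FPKM in parental cells.

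The OAS enzymes make 2-5A, which activates RNase L. OAS2 had 3.49, 4.00 and 5.84 FPKM in chemoresistant DTP cells, against 30.3, 35.4 and 39.9 FPKM in chemoresistant cells. It had 0.177, 0.190 and 0.286 FPKM in parental DTP libraries 1 to 4, 0.802 and 0.596 FPKM in libraries 5 and 6, and 0.187, 0.257 and 0.368 FPKM in parental cells. OASL, a relative that makes no 2-5A, had 5.38, 5.62 and 6.93 FPKM in chemoresistant DTP and 40.3, 42.4 and 44.6 FPKM in chemoresistant cells. In the parental line OASL had 3.26, 3.55 and 3.82 FPKM in parental DTP libraries 1 to 4 and 3.95 and 3.87 FPKM in libraries 5 and 6, against 1.25, 1.46 and 1.66 FPKM in parental cells, without overlap, whereas the parental groups of OAS2 overlapped. OAS3 had 4.72, 6.63 and 8.92 FPKM in chemoresistant DTP and 47.4, 51.4 and 55.8 FPKM in chemoresistant cells. In parental DTP libraries 1 to 4 OAS3 had 2.27, 2.38 and 2.56 FPKM, in libraries 5 and 6 it had 3.36 and 3.32, and in parental cells 3.13, 3.19 and 3.43. Libraries 1 to 4 lay below every parental library, while libraries 5 and 6 lay within the parental range. OAS1 rose 82.2-fold in mean FPKM in chemoresistant against parental cells (log2 fold change 3.89) and fell to 12.0% of its chemoresistant level in chemoresistant DTP cells.

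EIF2AK2 and ZC3HAV1 had the smallest rises in the chemoresistant line. EIF2AK2 encodes PKR, the kinase that stops translation when it binds double-stranded RNA. Its levels were 5.59, 8.73 and 9.57 FPKM in chemoresistant DTP, 14.8, 19.9 and 25.5 FPKM in chemoresistant, 6.97, 7.28 and 7.58 FPKM in parental DTP libraries 1 to 4, 8.14 and 5.79 FPKM in libraries 5 and 6, and 7.58, 8.62 and 11.7 FPKM in parental cells. The chemoresistant line alone stood above the rest, by 1.02 ± 0.13 against parental cells. ZC3HAV1 encodes ZAP, which binds CpG-rich viral RNA and brings about its decay. It had 3.10, 4.85 and 5.23 FPKM in chemoresistant DTP, against 9.06, 10.3 and 12.2 FPKM in chemoresistant cells. In parental DTP libraries 1 to 4 ZC3HAV1 had 4.85, 5.38 and 5.67 FPKM and in libraries 5 and 6 5.54 and 4.62 FPKM, against 7.62, 8.87 and 9.23 FPKM in parental cells. Its chemoresistant and parental libraries overlapped, and both DTP groups lay below their own lines. With relative log expression scaling the chemoresistant rise of ZC3HAV1 was 0.09 (adjusted p = 0.237, limma). ISG20, an RNA exonuclease, rose by 1.89 ± 0.05 in chemoresistant cells (3.13 to 3.75 FPKM) against parental cells (0.15 to 0.256 FPKM).

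ISG15 is a small protein joined to other proteins much as ubiquitin is, by the E2 enzyme UBE2L6 and the E3 ligase HERC5, and taken off by USP18. HERC6 is a relative of HERC5. All 5 genes moved together in the chemoresistant line and its DTP cells. ISG15 had 42.8, 47.2 and 78.4 FPKM in chemoresistant DTP cells, against 504, 544 and 631 FPKM in chemoresistant cells. It had 7.15, 7.70 and 9.31 FPKM in parental DTP libraries 1 to 4, 14.5 and 20.1 FPKM in libraries 5 and 6, and 11.8, 13.5 and 16.0 FPKM in parental cells. Only libraries 5 and 6 of the parental DTP cells reached the parental range. UBE2L6 had 25.1, 27.8 and 37.6 FPKM in chemoresistant DTP cells, against 166, 179 and 198 FPKM in chemoresistant cells. For parental DTP libraries 1 to 4 UBE2L6 stood at 2.90, 3.44 and 3.78 FPKM, for libraries 5 and 6 at 5.69 and 5.97, and for parental cells at 2.18, 2.69 and 3.14. UBE2L6 had the largest rise of the pathway in chemoresistant against parental cells (5.63 ± 0.12), followed by ISG15 (5.27 ± 0.19). In chemoresistant DTP against chemoresistant cells ISG15 fell by 3.37 and UBE2L6 by 2.59 on the log2 scale. The remaining members, HERC5, HERC6 and USP18, had rises of 2.95, 3.33 and 2.78 and then fell by 2.01, 2.10 and 2.30 in the chemoresistant DTP cells. USP18 also damps the interferon receptor, and had 44.0 to 53.5 FPKM in chemoresistant cells, against 5.52 to 6.84 FPKM in parental cells.

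MX2, a GTPase that blocks nuclear entry of viral genomes, had 0.476, 0.607 and 1.07 FPKM in chemoresistant DTP cells, against 9.69, 10.5 and 12.2 FPKM in chemoresistant cells. It had 0.0252, 0.0280 and 0.0376 FPKM in parental DTP libraries 1 to 4, 0.189 and 0.106 FPKM in libraries 5 and 6, and 0.0581, 0.0736 and 0.102 FPKM in parental cells. The parental values rest on 19 to 43 reads a library. GBP1, a GTPase that attacks membranes around intracellular pathogens and answers interferon gamma most strongly, had 1.14, 1.29 and 1.40 FPKM in chemoresistant DTP and 4.6, 5.27 and 7.0 FPKM in chemoresistant cells. Its values of 0.0897, 0.156 and 0.229 FPKM in parental DTP libraries 1 to 4, and of 0.203 and 0.132 FPKM in libraries 5 and 6, overlapped the parental values of 0.182, 0.237 and 0.287 FPKM. MX1, the relative of MX2 that acts on many RNA viruses, was not tested. Its mean was 0.199 FPKM in chemoresistant DTP, 0.702 in chemoresistant, 0.193 in parental DTP and 0.0907 in parental cells, over a gene length of 17983 bases implied by the values. MX1 had 66 to 108 reads in chemoresistant DTP, against 247 to 333 in chemoresistant libraries. In the parental line it had 0.155 to 0.199 FPKM in DTP libraries 1 to 4 and 0.222 and 0.238 FPKM in libraries 5 and 6, against 0.0744 to 0.120 in parental libraries, so the DTP libraries were all above the parental ones.

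BST2, or tetherin, holds budding virus at the cell surface. It had 151, 164 and 233 FPKM in chemoresistant DTP cells, against 400, 427 and 468 FPKM in chemoresistant cells. In parental DTP libraries 1 to 4 BST2 had 0.709, 0.950 and 1.25 FPKM, in libraries 5 and 6 it had 9.53 and 10.1, and in parental cells 1.38, 2.30 and 2.68. Libraries 1 to 4 lay below every parental library and libraries 5 and 6 above every one. The log2 fold change of chemoresistant against parental cells was 7.11 ± 0.36. IFITM1 and IFITM3 keep viruses from fusing with cell membranes. IFITM1 had 106, 118 and 147 FPKM in chemoresistant DTP and 748, 776 and 915 FPKM in chemoresistant cells. It stood at 10.9, 11.1 and 11.7 FPKM in parental DTP libraries 1 to 4, at 31.8 and 27.0 FPKM in libraries 5 and 6, and at 11.7, 12.5 and 15.8 FPKM in parental cells. IFITM3 had 58.0, 63.0 and 66.7 FPKM in parental DTP libraries 1 to 4 and 70.3 and 77.9 FPKM in libraries 5 and 6, against 71.3, 79.0 and 91.2 FPKM in parental cells. Its chemoresistant DTP cells had 160, 174 and 240 FPKM, against 742, 827 and 1029 FPKM in chemoresistant cells. IFITM2 had few reads, with 0.319, 0.758 and 1.34 FPKM in chemoresistant DTP, 2.73, 3.56 and 4.26 FPKM in chemoresistant, 0.244, 0.569 and 0.673 FPKM in parental DTP libraries 1 to 4, 0.0981 and 0.178 FPKM in libraries 5 and 6, and 0.239, 0.417 and 0.644 FPKM in parental cells. IFITM1, IFITM2 and IFITM3 are close copies, and the split of reads between them is uncertain.

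PLSCR1 (a phospholipid scramblase), RTP4 (a receptor transport protein) and LGALS3BP (a secreted galectin-binding protein) complete this group. LGALS3BP, at 64.6 to 71.8 FPKM in parental cells, rose by 1.68 ± 0.04 in chemoresistant cells and fell by 1.03 ± 0.04 in their DTP cells, the smallest of the 43 falls. PLSCR1 rose by 2.78 ± 0.06 and fell by 1.69 ± 0.06 in the same comparisons. RTP4 was at 0 in 3 parental libraries and had 1 read in each of the others, against 67 to 112 reads in chemoresistant libraries.

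RSAD2 (viperin) and CMPK2 together supply an altered CTP that ends viral RNA chains, SAMD9 and SAMD9L shut down translation, DDX60 and DDX60L are helicase-like proteins, and HELZ2 is a helicase coactivator. HELZ2 had 7.14, 9.30 and 12.4 FPKM in chemoresistant DTP cells, against 36.7, 39.4 and 45.1 FPKM in chemoresistant cells. It had 1.13, 1.18 and 1.47 FPKM in parental DTP libraries 1 to 4, 1.95 and 2.28 FPKM in libraries 5 and 6, and 0.915, 0.992 and 1.08 FPKM in parental cells. These groups did not overlap. CMPK2 had 0.811, 0.911 and 1.10 FPKM in chemoresistant DTP, 9.63, 11.1 and 12.1 FPKM in chemoresistant, 0.0732, 0.103 and 0.176 FPKM in parental DTP libraries 1 to 4, 0.236 and 0.305 FPKM in libraries 5 and 6, and 0.0668, 0.0763 and 0.0957 FPKM in parental cells. Its neighbour RSAD2 was left at 9.42% of its chemoresistant level in DTP cells, beside 8.49% for CMPK2. SAMD9 had 1.5, 3.09 and 3.53 FPKM in chemoresistant DTP and 5.75, 8.44 and 12.3 FPKM in chemoresistant cells, against 1.19, 1.20 and 1.26 FPKM in parental DTP libraries 1 to 4, 1.35 and 1.13 FPKM in libraries 5 and 6, and 1.16, 1.48 and 2.08 FPKM in parental cells. SAMD9L had 0.0503 to 0.141 FPKM in parental cells, and rose by 2.65 ± 0.09 in chemoresistant cells, against 1.92 ± 0.14 for SAMD9. DDX60 rose by 1.31 ± 0.06 and DDX60L by 1.60 ± 0.06 in chemoresistant cells, both from parental levels of at most 0.260 FPKM. Their ratios of mean FPKM were 9.79 and 32.3.

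PARP9 and DTX3L form a complex that adds ADP-ribose to ubiquitin and acts in DNA repair, PARP14 is a mono-ADP-ribosyl transferase, and TRIM22 and SP110 are nuclear proteins. TRIM22 had 0.438, 0.529 and 0.843 FPKM in chemoresistant DTP cells, against 12.1, 13.8 and 16.7 FPKM in chemoresistant cells. It had 0.0177, 0.0257 and 0.0384 FPKM in parental DTP libraries 1 to 4, 0.219 and 0.113 FPKM in libraries 5 and 6, and 0.0352, 0.0729 and 0.150 FPKM in parental cells. Of all tested genes of the list it kept the smallest share of its chemoresistant level in DTP cells, at 4.11%. PARP14 had 4.80, 7.58 and 8.08 FPKM in chemoresistant DTP, 21.9, 25.2 and 29 FPKM in chemoresistant, 2.91, 3.07 and 3.25 FPKM in parental DTP libraries 1 to 4, 4.05 and 3.50 FPKM in libraries 5 and 6, and 1.51, 1.84 and 2.23 FPKM in parental cells. No group of PARP14 overlapped another. PARP9 had 3.88, 4.52 and 5.44 FPKM in chemoresistant DTP and 19.4, 21.8 and 26.0 FPKM in chemoresistant cells, with 1.64, 1.76 and 1.79 FPKM in parental DTP libraries 1 to 4, 1.94 and 1.91 FPKM in libraries 5 and 6, and 1.68, 1.84 and 2.43 FPKM in parental cells. SP110 had 0.583, 0.658 and 0.682 FPKM in chemoresistant DTP, 2.49, 2.99 and 3.37 FPKM in chemoresistant, 0.518, 0.535 and 0.637 FPKM in parental DTP libraries 1 to 4, 0.528 and 0.491 FPKM in libraries 5 and 6, and 0.8, 0.828 and 0.909 FPKM in parental cells. SP110 was lower in both DTP groups than in either line. DTX3L rose by 2.78 ± 0.10 in chemoresistant cells and fell by 1.40 ± 0.10 in their DTP cells.

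IFI6 and IFI27 are small proteins of the endoplasmic reticulum and mitochondria with roles in survival, and XAF1 promotes apoptosis. IFI27 had 25.2, 31.1 and 45.0 FPKM in chemoresistant DTP cells, against 153, 179 and 201 FPKM in chemoresistant cells. In parental DTP libraries 1 to 4 IFI27 had 0.102, 0.143 and 0.157 FPKM, in libraries 5 and 6 it had 3.83 and 3.34, and in parental cells 0.172, 0.267 and 0.385. Its mean was 661-fold higher in chemoresistant than in parental cells, the highest ratio of the 43 tested members. IFI6 had 19.0, 20.7 and 31.3 FPKM in chemoresistant DTP and 242, 269 and 276 FPKM in chemoresistant cells. It had 0.633, 0.785 and 0.984 FPKM in parental DTP libraries 1 to 4, 5.37 and 4.86 FPKM in libraries 5 and 6, and 1.41, 2.28 and 3.02 FPKM in parental cells. Both genes fell below the parental range in libraries 1 to 4 and stood above it in libraries 5 and 6. IFI44L followed the same pattern, with 1.59, 1.86 and 2.51 FPKM in chemoresistant DTP, 11.5, 16.0 and 18.5 FPKM in chemoresistant, 0.0791, 0.104 and 0.112 FPKM in parental DTP libraries 1 to 4, 0.397 and 0.352 FPKM in libraries 5 and 6, and 0.165, 0.207 and 0.286 FPKM in parental cells. IFI35 and IFI44 had chemoresistant rises of 3.41 ± 0.07 and 3.70 ± 0.09, and XAF1 of 2.23 ± 0.04. In mean FPKM the order differed, with ratios to parental cells of 12.8 for IFI35, 16.1 for IFI44 and 324 for XAF1. The parental mean of XAF1 was 0.0115 FPKM. EPSTI1 had at most 3 reads in any library and is not read further.

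The share of the chemoresistant level that was left in chemoresistant DTP cells differed between members. It was 18.3% at the median of the 43 tested genes. TRIM22, MX2 (6.05%), XAF1 (6.48%), CMPK2, IFI6 (8.61%), RSAD2 and ISG15 (9.72%) were left with under 10%. LGALS3BP (48.7%), ZC3HAV1 (43.8%), EIF2AK2 (41.6%) and BST2 (39.9%) kept the most. LGALS3BP, ZC3HAV1 and EIF2AK2 also had the lowest ratios of chemoresistant to parental mean FPKM (3.25, 1.22 and 2.15), while that of BST2 was 199. The remaining level was still above the parental one for most genes. In chemoresistant DTP against parental cells, 39 of 43 were higher (background 46.2%) and 2, ZC3HAV1 (-0.79 ± 0.08) and SP110 (-0.16 ± 0.04), were lower (background 27.6%, and 73.8% in either direction). In 37 genes every chemoresistant DTP library was above every parental one (background 32.0%) and in 2 below (19.7%), and 21 rose at least 2-fold (background 6.71%). EIF2AK2 (-0.15) and IFITM2 (0.29) passed in neither direction.

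**Figure D3:**
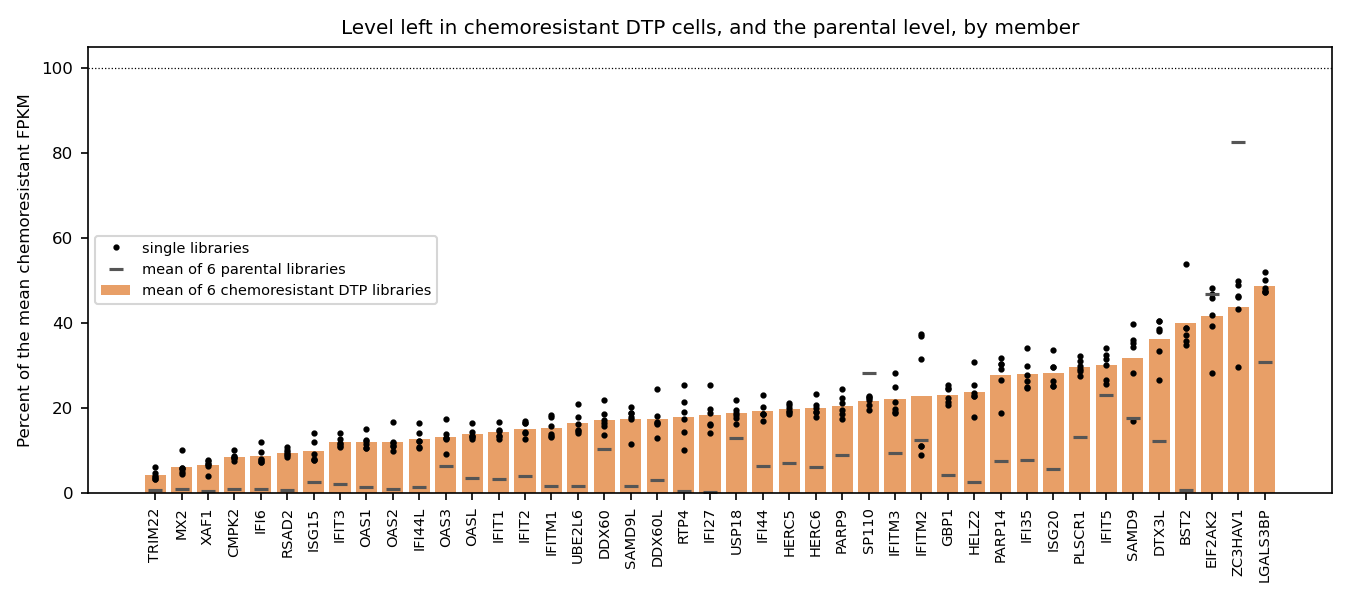
Mean FPKM in 6 chemoresistant DTP libraries as a percent of the mean in 6 chemoresistant libraries (bars), with single DTP libraries as points and the mean of 6 parental libraries on the same scale as grey dashes. Bars run from 4.11% (TRIM22) to 48.7% (LGALS3BP), and the dash lies above the bar for EIF2AK2, ZC3HAV1 and SP110.

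In parental DTP against parental cells the changes were small on the log2(FPKM + 1) scale and went both ways. Of 43 genes, 13 were higher and 4 lower, where 45.8% and 19.7% of all tested genes were called (65.5% in either direction). The median log2 fold change was 0.08, against 0.14 over all genes. None reached 2-fold on that scale, where 2.76% of all genes did upward and 0.663% downward. With voom on the recovered reads, which compresses low genes less, some called rises passed 2-fold. These were RTP4 (1.73, on 3 parental reads in all), OASL (1.35), DDX60 (1.31), IFIT2 (1.20), IFI35 (1.11) and ISG20 (1.06). The largest called fall in that fit was ZC3HAV1 (-0.73). Every parental DTP library was above every parental one in 10 genes (background 32.8%) and below in 2 (13.0%). IFI35 (0.95 ± 0.07), OASL (0.94 ± 0.05), IFIT2 (0.83 ± 0.08), PLSCR1 (0.58 ± 0.06) and PARP14 (0.58 ± 0.09) had the largest rises, and DDX60, HERC5, ISG20, UBE2L6, HELZ2, IFIT1, IFIT3 and IFI44 were also called higher. ZC3HAV1 (-0.63 ± 0.08), EIF2AK2 (-0.32 ± 0.13), IFITM3 (-0.26 ± 0.10) and SP110 (-0.26 ± 0.04) were called lower, with adjusted p (limma) of at most 0.0301. With relative log expression factors, which bring the median of all genes to 0.00 from 0.14, 9 were higher and 10 lower, where 32.6% and 32.1% of all genes were called in the same fit.

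Without parental DTP libraries 5 and 6, 9 genes were higher and 7 lower (43.1% and 19.5% of all genes in the same fit). The 9 were IFI35 (0.89), OASL (0.90), IFIT2 (0.82), PLSCR1 (0.60), PARP14 (0.50), HERC5 (0.35), DDX60 (0.31), UBE2L6 (0.26) and ISG20 (0.22). IFI6 (-0.87 ± 0.13), ISG15 (-0.69 ± 0.14), BST2 (-0.69 ± 0.12) and OAS3 (-0.31 ± 0.09) were then called lower, beside ZC3HAV1, IFITM3 and SP110, with adjusted p (limma) of at most 0.00839 for these 7. BST2 had the opposite sign, 0.14, with all 6 libraries. In mean FPKM, libraries 1 to 4 had 0.321 times the parental level for TRIM22 (3 to 5 reads a library in parental DTP libraries 1 to 4), 0.343 for IFI6, 0.379 for MX2 (8 to 14 reads), 0.445 for BST2, 0.457 for IFI44L and 0.506 for IFI27, against 2.46 for OASL, 2.31 for IFIT2 and 2.05 for IFI35.

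**Figure D4:**
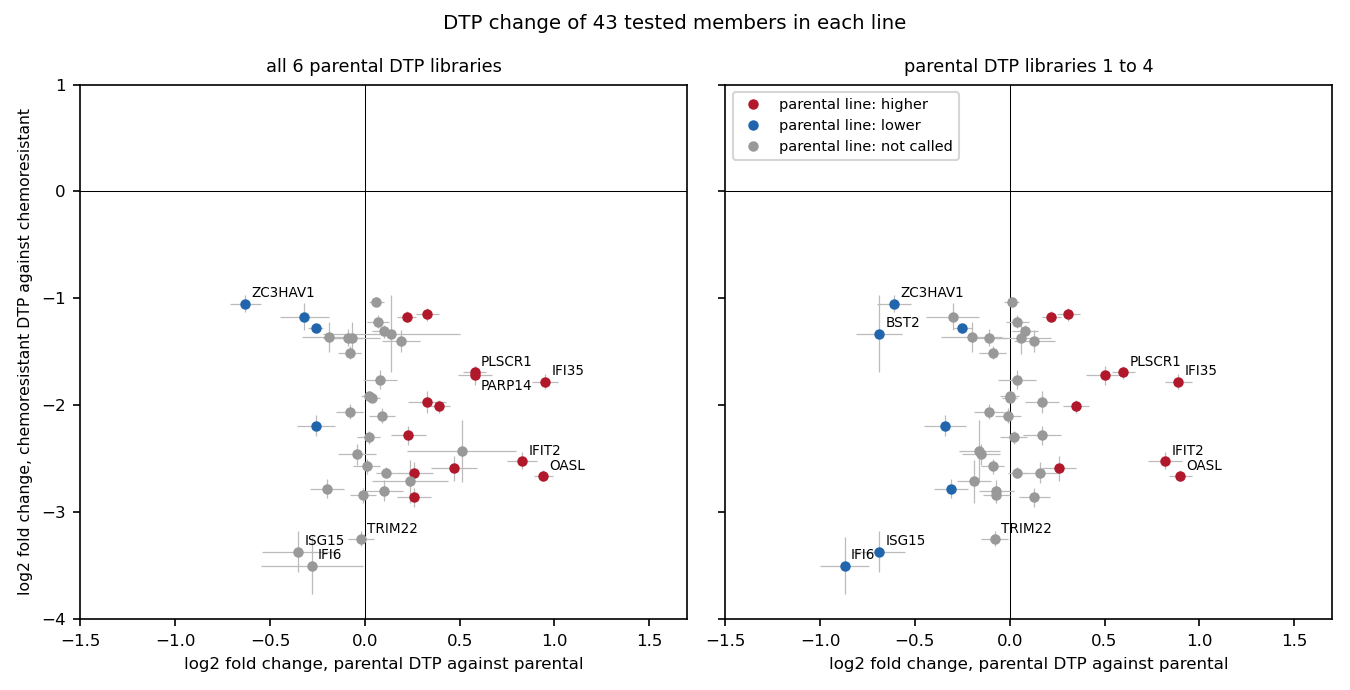
Log2 fold change of DTP cells against their own line for the 43 tested genes, with the parental line on the horizontal and the chemoresistant line on the vertical axis, and bars of 1 SE. The left panel uses all 6 parental DTP libraries and the right panel libraries 1 to 4. All points lie below 0 on the vertical axis, and they spread to both sides of 0 on the horizontal one, with BST2, ISG15 and IFI6 farther left on the right-hand panel.

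Libraries 5 and 6 were both above all of libraries 1 to 4 in 28 of 43 tested genes (65.1%), against 17.7% of all tested genes, and both below in 1 (IFITM2), against 11.7%. IFITM2 had 4 or 5 reads in each of the 2 libraries. In BST2, IFI27, IFI44L, IFI6, IFITM1 and MX2, 6 of 43 (14%), libraries 1 to 4 lay below every parental library and libraries 5 and 6 above every one, a pattern held by 28 of all 13729 genes tested (0.204%). Among the 23 genes with a chemoresistant mean at least 20 times the parental one, library 5 had a median of 2.08 times and library 6 of 2.59 times the mean of libraries 1 to 4. Among the other 20 the medians were 1.12 and 1.06. For 16 of the 23, those with at least 1 FPKM in chemoresistant DTP cells, the excess over libraries 1 to 4 was set against the chemoresistant mean. It came to 0.701% to 2.55% (median 1.68%) in library 5 and -0.469% to 2.59% (median 1.49%) in library 6. In the 124 other genes with such a ratio the medians were 2.64% and 2.53%, with ranges of -30.0% to 286% and -42.1% to 323%. These libraries had 33836771 and 14947379 reads, the second highest and the lowest of all 24. What sets them apart was not tested.

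**Figure D5:**
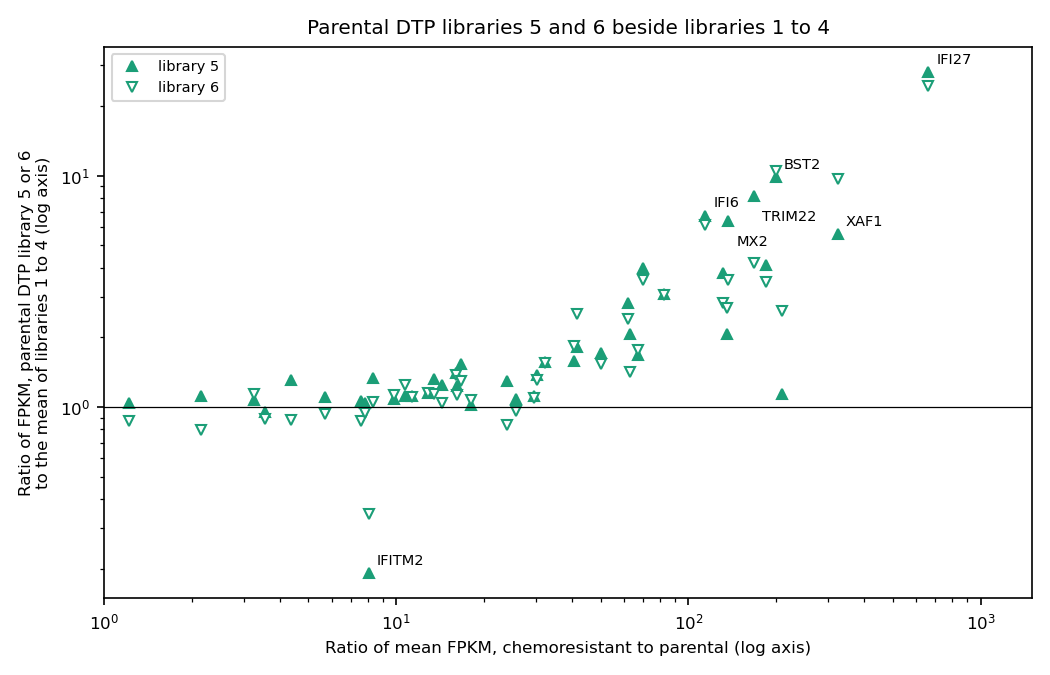
Each tested gene's FPKM in parental DTP library 5 (filled) and 6 (open), divided by the mean of libraries 1 to 4, against the ratio of mean FPKM in chemoresistant to parental cells (both axes log). Genes near the left lie around 1, IFI27, BST2 and IFI6 lie well above it at the right, and IFITM2 lies below. The point of RTP4 rests on 3 parental reads in all.

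How far the DTP change differed between the 2 lines was tested as chemoresistant minus parental. It was below 0 and past the threshold in 43 of 43 genes (background 43.4%, and 63.8% in either direction), with a median of -2.30 against -0.17 over all genes. This count too includes the genes that passed the filter through chemoresistant cells alone. For them the filter favours a value below 0. Genes near 0 in parental cells have little room to fall in parental DTP cells on this scale. XAF1, RTP4, RSAD2, DDX60L, MX2, CMPK2, TRIM22 and SAMD9L, with parental means of 0.0115 to 0.094 FPKM, are such genes. Their differences largely restate the fall in the chemoresistant line. OASL (-3.60 ± 0.07), IFIT2 (-3.35 ± 0.11) and TRIM22 (-3.23 ± 0.10) had the largest differences on the log2(FPKM + 1) scale and ZC3HAV1 (-0.42 ± 0.12) the smallest. With voom on the recovered reads, which compresses low genes less, XAF1 (-5.01), CMPK2 (-4.37) and RTP4 (-4.24) exceeded OASL (-4.21). In OASL and IFIT2 the fall in chemoresistant DTP cells met a rise in parental DTP cells. The difference of BST2 (-1.47 ± 0.50, adjusted p = 0.0134, limma) depended on libraries 5 and 6, without which it was -0.65 and still called (adjusted p = 0.00125). With a pseudocount of 0.1 it was about as large but not called (-1.33, adjusted p = 0.0862), and with both changes it was -0.24 (adjusted p = 0.349, all limma).

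When the DTP groups were set against each other, 39 of 43 genes were higher in chemoresistant than in parental DTP cells (background 29.5%) and 1, DDX60, was lower (-0.17 ± 0.06, background 32.3%, and 61.9% in either direction). Every chemoresistant DTP library was above every parental DTP one in 37 genes (background 16.5%) and below in 1 (19.8%). The median was 0.75, against -0.02 over all genes, and 17 genes reached 2-fold (background 3.02%). BST2 (5.64 ± 0.36), IFI27 (4.19 ± 0.29), IFI6 (3.11 ± 0.27), IFITM1 (2.90 ± 0.20) and UBE2L6 (2.57 ± 0.12) differed most on the log2(FPKM + 1) scale. DDX60 had 0.272, 0.336 and 0.436 FPKM in chemoresistant DTP, against 0.440, 0.482 and 0.574 FPKM in parental DTP libraries 1 to 4 and 0.534 and 0.560 FPKM in libraries 5 and 6, so every library was below, by a small margin. EIF2AK2, ZC3HAV1 and SP110 passed in neither direction. The call of IFITM2 (0.36, adjusted p = 0.0373, limma) was lost without parental DTP libraries 5 and 6 (0.23, adjusted p = 0.223, limma), and also when any of parental DTP libraries 3, 5 and 6 or chemoresistant DTP libraries 1, 2 and 3 was left out alone. This comparison and the ones above share their groups, so their counts are not independent.

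By position, the 45 genes lie on 16 chromosomes in GENCODE release 29 (GRCh38), all are protein coding, and 24 lie within 100 kb of another member. The IFIT genes stand in a row on chromosome 10, with IFIT2 at 89283694 to 89309276 and IFIT5 at 89414586 to 89421001. OAS1, OAS3 and OAS2 lie side by side on chromosome 12 between 112906777 and 113011723. Neighbours were alike in some values and unlike in others, and were not tested against each other. IFIT5 kept 30.0% of its chemoresistant level in DTP cells, against 14.2% for IFIT1, 15.1% for IFIT2 and 11.9% for IFIT3. The shares kept by OAS1 (12.0%), OAS2 (12.0%) and OAS3 (13.1%) were close. In chemoresistant cells OAS3 had 16.0 times its parental level, against 131 times for OAS2 and 82.2 times for OAS1. CMPK2 and RSAD2 overlap on opposite strands on chromosome 2, as PARP9 and DTX3L do on chromosome 3, and IFITM1 and IFITM2 overlap on chromosome 11. Strand use in counting is not given in the sources used here, so reads in such overlaps may be split either way. Genes with and without a match to the searched pattern (GAAA, 2 bases, GAAA) were set side by side without a test. Those without may still hold an ISRE of another spacing or outside the window. The median of chemoresistant against parental cells was 2.96 for 26 tested genes with a match and 3.37 for 10 without. For chemoresistant DTP against chemoresistant cells the medians were -1.81 and -1.95.

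Other genes of the interferon pathway, not all of them upstream of these effectors, were read from separate lists. Whether their changes come before or follow those of the members was not tested. IRF7, the factor that amplifies interferon production, had 4.77 FPKM in chemoresistant DTP, 24.8 in chemoresistant, 1.64 in parental DTP and 1.25 in parental cells (means). STAT2, a subunit of the complex that binds the ISRE, had means of 10.8, 28.8, 6.29 and 4.12 FPKM in that order of groups. It was higher in parental DTP than in parental cells (0.51). IRF9 rose by 0.99 and IRF1 by 1.51 in chemoresistant against parental cells, and fell by 0.38 and 0.66 in chemoresistant DTP against chemoresistant cells. Among 9 tested sensors of foreign or misplaced nucleic acid, 6 were higher and 1 lower in chemoresistant than in parental cells, where 77.5% of all tested genes were called in either direction. DHX58 (LGP2, 3.65 ± 0.06) and IFIH1 (MDA5, 2.85 ± 0.06), both detectors of double-stranded RNA, had the largest changes, and in chemoresistant DTP against chemoresistant cells they fell by 2.51 and 1.71.

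All 6 tested effectors that answer mainly to interferon gamma were higher in chemoresistant than in parental cells (background 48.2%), led by the chemokine CXCL10 (3.22 ± 0.09) and the GTPase GBP5 (2.21 ± 0.04), and all 6 were lower in chemoresistant DTP than in chemoresistant cells (background 27.4%). Of 6 feedback inhibitors, 3 were higher and 2 lower in chemoresistant than in parental cells, close to the 48.2% and 29.4% of all genes, with SOCS1 at 2.03 ± 0.10 and SOCS3 at 1.33 ± 0.06. SOCS1 was also higher in parental DTP than in parental cells (1.75), and SOCS3 did not pass in chemoresistant DTP against chemoresistant cells (0.09). Of 6 receptor genes 4 were tested. All 4 were higher in chemoresistant than in parental cells (background 48.2%), with the 2 largest changes in IFNGR1 (1.17 ± 0.05) and IFNGR2 (0.64 ± 0.05). All 4 were also higher in parental DTP than in parental cells (median 0.42, background 45.8%). Of 21 interferon genes 2 could be tested. IFNL1, a lambda interferon, had mean levels of 0.248 FPKM in chemoresistant DTP, 1.17 in chemoresistant, 0.0844 in parental DTP and 0.0165 in parental cells, and IFNE, an epithelial interferon, 2.24, 1.23, 1.51 and 0.467 FPKM. IFNB1 was not tested, with 14, 39 and 16 reads over 6 libraries in chemoresistant DTP, chemoresistant and parental DTP cells, and none in parental cells. Of 2 tested nuclear-retained RNAs, a sign of how RNA was recovered, NEAT1 was higher (1.68 ± 0.09) and MALAT1 lower (-0.52 ± 0.14) in chemoresistant than in parental cells. Both were higher in chemoresistant DTP than in chemoresistant cells (0.26 and 0.41), and both in parental DTP than in parental cells (1.57 and 0.45). Their part in these results was not tested.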

How the data were processed

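RNA was sequenced from 24 libraries in 4 groups of 6, taken from the sample titles. The authors deposited FPKM values, per the file headers, in 1 table with a column per library. The submitters' processing notes name the build GRCh38. The aligner, annotation release, counting tool and strand setting were not given in the sources used here. All 41101 genes with a value were whole multiples of 1 read (within 0.02 reads), which gave library totals of 14947379 to 37989445 reads. A count of 0 allows up to 3 reads, which covers counting error only.

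Values were tested as log2(FPKM + 1) in limma 3.58.1 (R 4.3.3) with a mean-variance trend and 4 group means over 24 libraries. Changes of low genes are understated on this scale. The 13729 genes whose mean reached 1 FPKM in some group entered. Tests were two-sided, with Benjamini-Hochberg adjustment over all genes and a threshold of 0.05. The fit was tested on simulated data. Promoter windows are RefSeq's, positions GENCODE release 29. Alternatives covered scaling, filters, pseudocount, voom on recovered reads, the replicate number as a block and left-out libraries.

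The members, role groups and lists were chosen with earlier results of these data known. Every member may be named. Levels in every group are given for each role's 2 largest changes in chemoresistant against parental cells, and for members whose sign opposed the median member's. Of the other lists, the 2 largest changes past the threshold are named, with STAT2, IRF9, IRF7 and IRF1; a further gene of the rule is not reported here. DDX60, MX1 and IFNB1 were given levels after their values were seen.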

Additional observations from a re-analysis of the deposited data

Results flagged for a closer look

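In 9 of 179 sets of 6 libraries, 1 library lay far from the other 5 (about 1 set in 20 does so by chance). In chemoresistant DTP cells, library 1 was high for OAS2 (5.84 FPKM, others 3.49 to 4.20) and MX2 (1.07, others 0.476 to 0.627). Library 2 of the same group was high for BST2 (233, others 151 to 168) and low for ZC3HAV1 (3.10, others 4.55 to 5.23) and SAMD9L (0.687, others 1.04 to 1.20). In parental DTP cells, library 5 was high for DTX3L (6.21, others 4.58 to 4.91) and library 4 for SP110 (0.637, others 0.491 to 0.536). In parental cells, library 5 was high for OAS3 (3.43, others 3.13 to 3.23), and library 3 had the only read of EPSTI1 (0.0085 FPKM, others 0).

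The DTP change differed between the lines, by a test of the difference in limma, in 43 of 43 tested members, each with the chemoresistant line lower. Some of these members passed the filter through chemoresistant cells alone, which favours that direction. The difference of BST2 was -1.47, and with a pseudocount of 0.1 it was -1.33 and no longer called (adjusted p = 0.0862, limma).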

How the results depend on the processing

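The total counts of members called stayed within 1.5 times their value under every alternative run. Leaving out 1 library at a time gave 14 to 18 for parental DTP against parental cells (11 to 14 higher and 3 to 7 lower, against 13 and 4, with 11 and 7 without parental DTP library 5), 39 to 41 for chemoresistant DTP against parental DTP cells, 41 to 42 for chemoresistant DTP against parental cells, and 43 in the other 3 comparisons. Members changed sign, with a call, only in parental DTP against parental cells. These were LGALS3BP (-0.13) with relative log expression factors and BST2 (-0.69) without libraries 5 and 6. With both changes together, chosen after seeing the data (8 higher and 12 lower), they were IFITM1 (-0.36), BST2 (-0.80) and LGALS3BP (-0.17). With a pseudocount of 0.1 and without those libraries, also chosen later (12 higher and 13 lower), they were OAS1 (-0.41), BST2 (-1.10) and IFI27 (-0.63). The cause was not tested. The fit with relative log expression factors also lost IFIT5 (0.15) and gained EIF2AK2 (-0.29) in chemoresistant DTP against parental cells. Deviations of same-numbered libraries correlated at -0.385 to 0.403, which cannot settle whether the replicate numbers pair the samples. With the replicate block, 17 members were called in parental DTP against parental cells, 43 in chemoresistant DTP against chemoresistant, 43 in chemoresistant against parental, 40 in chemoresistant DTP against parental DTP, 41 in chemoresistant DTP against parental, and 43 in the difference, and no call changed. Depth limits, among others, RTP4, XAF1, RSAD2, TRIM22, MX2, CMPK2, IFITM2, SAMD9L and DDX60L, which rest on few reads in the parental groups.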
